A study of Mus musculus with 12 samples.

Results

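Circadian clock genes were examined in inguinal white adipose tissue (iWAT) of Atf4WT and Atf4AKO mice at room temperature (RT) and after cold exposure. The genes were taken by name: Arntl, Clock, Npas2, Per1, Per2, Per3, Cry1, Nr1d1, Nr1d2 and Dbp. All 10 were listed among the 14159 genes of the deposited normalized counts, and all 10 passed the filter that left 13404 genes for the tests. Atf4WT mice carried floxed alleles (Atf4 fl/fl), and their Atf4AKO littermates also carried Cre driven by the Adipoq promoter, which is active in adipocytes but not in the other cells of the tissue. Both genotypes were on a C57BL/6 background. Each genotype was studied at RT and after 24 h in the cold, with 3 biological replicates (numbered 0, 1 and 2) in each of the 4 groups. The age of these mice and the hour at which the tissue was taken are not given in the sources used here.

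The clock is a feedback loop of transcription that runs in most cells, adipocytes included. BMAL1 (encoded by Arntl) pairs with CLOCK or NPAS2 and binds E-boxes, which drives the Per and Cry genes, Nr1d1, Nr1d2 and Dbp. PER and CRY proteins then repress this pair, and the REV-ERB proteins (encoded by Nr1d1 and Nr1d2) repress Arntl through ROR elements. Transcripts of Arntl and Npas2 therefore peak at roughly the opposite time of day from those of Dbp and the Nr1d genes, with Cry1 late in between. Because of this cycling, the time of tissue collection can shift every gene of the loop. No time was given, so it cannot be told apart here from cold exposure or from differences between mice.

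The libraries held 25719476 to 29105147 reads on listed genes. Atf4 was lower in every Atf4AKO library (788 to 1639 normalized counts) than in every Atf4WT library (4107 to 7644). Its log2 fold change was -2.60 in the cold (adjusted p = 0.000644) and -1.61 at RT (adjusted p = 0.0762). Ucp1, the uncoupling protein of thermogenic fat, rose with cold by 7.67 on the log2 scale in Atf4WT and by 7.51 in Atf4AKO iWAT. The 10 white adipocyte markers were all listed, with medians of 0.02 and -0.09 on the log2 scale for cold against RT. Some libraries stood apart in RNA of other cell types. Skeletal muscle markers, of which 6 of 10 were listed and none was at 0, summed to 87261 normalized counts in Atf4WT RT replicate 2 and to 30854 in Atf4WT cold replicate 0, but to between 78.7 and 3269 in the other 10 libraries. B cell markers (11 of 12 listed, none at 0) summed to 151 to 4343 in Atf4WT RT, 4171 to 14733 in Atf4WT cold, 144 to 684 in Atf4AKO RT and 96.4 to 381 in Atf4AKO cold libraries. T cell markers (12 of 12 listed, none at 0) summed to 218 to 821, 1112 to 9171, 343 to 905 and 193 to 509 in the same order of groups. No listed gene of any kind was at 0 in any library, so the absence of 0 is not particular to these markers. With cold, 10 of 11 B cell and 12 of 12 T cell markers were called higher in Atf4WT iWAT (adjusted p under 0.05, limma). Of all tested genes, 31.9% were called in that comparison, in either direction. The medians of the B and T cell markers were 4.45 and 3.39 on the log2 scale in Atf4WT iWAT, whereas in Atf4AKO iWAT they were -0.53 and -0.77. In bulk tissue, fewer cells of a type and less RNA per cell cannot be told apart.

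The clock genes spanned a wide range of levels. Per kilobase of annotated exon, the order of mean normalized counts in Atf4WT iWAT at RT was Nr1d1 (2375), Dbp (803), Per1 (496), Nr1d2 (485), Per3 (151), Clock (131), Per2 (89.9), Cry1 (63.7), Arntl (34.1) and Npas2 (20.6). Neighbours in this order whose libraries did not overlap were Nr1d1 and Dbp, Nr1d2 and Per3, Clock and Per2, and Cry1 and Arntl. The other neighbouring pairs overlapped between libraries. Nr1d1 led and Npas2 came last in all 4 groups. In the cold, the mean of Dbp moved below that of Per1 in both genotypes, to 340.4 per kilobase in Atf4WT and 268 in Atf4AKO. In Atf4WT the cold libraries of Per1 (189 to 605) and Dbp (231 to 427) overlapped. In Atf4AKO those of Per1 (380 to 555) lay above those of Dbp (241 to 292). Reads per library ranged from 41 reads for Npas2 in its lowest library to 9969 for Nr1d1 in its highest.

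**Figure D1:**
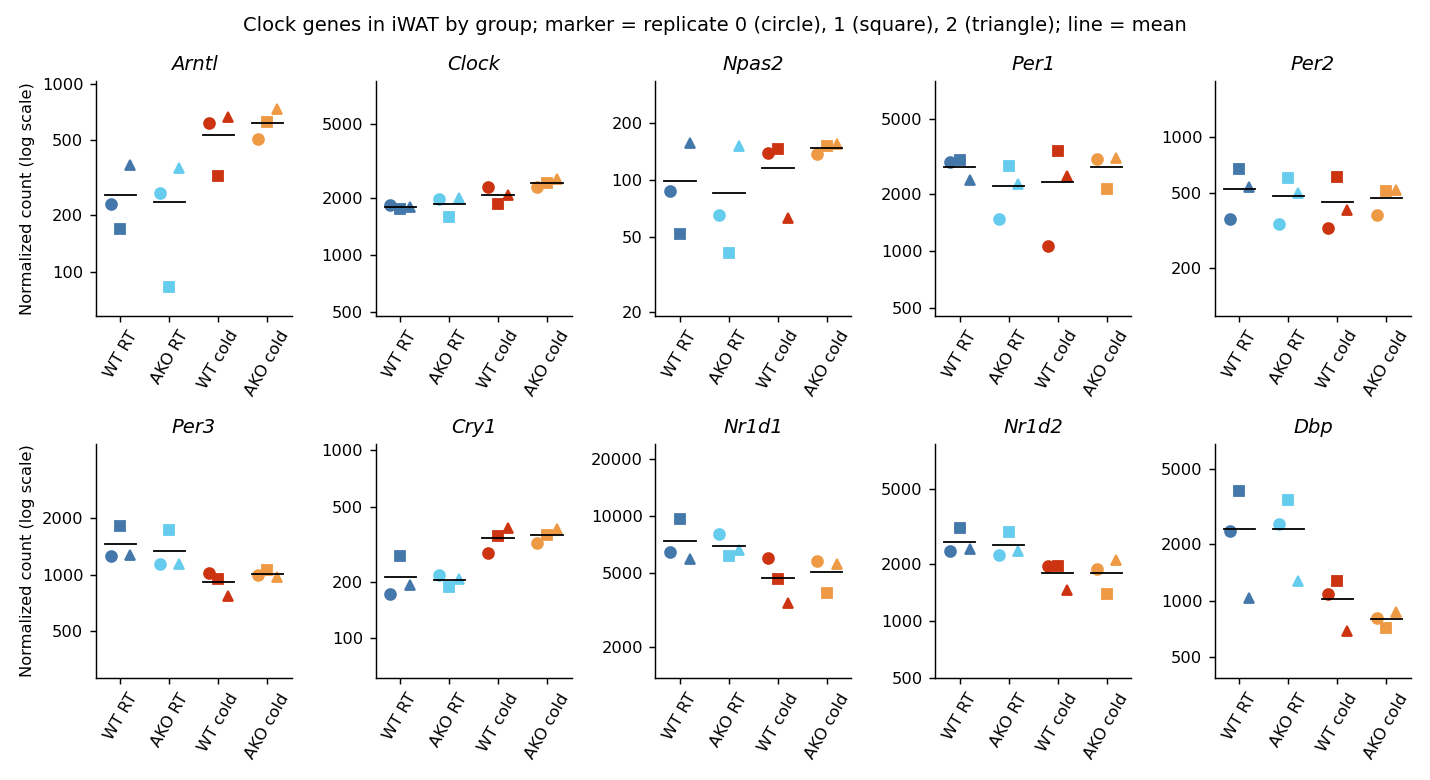
Normalized counts of the 10 clock genes in the 12 libraries, 1 panel per gene, on log axes that each span the same fold. Each point is 1 library with its shape giving the replicate number, and the line is the group mean (n = 3). The means of Arntl, Clock, Npas2 and Cry1 were higher and those of Per2, Per3, Nr1d1, Nr1d2 and Dbp lower in the cold in both genotypes, while Arntl, Npas2 and Dbp were widely spread at RT.

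The first question was how 24 h of cold changed the clock genes in control tissue. In Atf4WT iWAT, Cry1 rose 1.62-fold, Per3 fell 1.57-fold and Nr1d2 fell 1.46-fold. These 3 of 10 genes were called at an adjusted p under 0.05 (limma on log2 values, adjusted over all tested genes), 1 higher and 2 lower, against 31.9% of all tested genes. The share is close to the background. The median log2 fold change of the 10 genes was -0.32, against 0.0026 over all tested genes. In Atf4AKO iWAT, Arntl rose 3.09-fold, Cry1 1.73-fold and Clock 1.31-fold, and Dbp fell 2.79-fold. These 4 of 10 genes, 3 higher and 1 lower, stood against a background of 25.9%, and the median of the 10 was 0.18 against -0.03 over all tested genes. Cry1 was the single gene called in both genotypes.

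The positive arm of the loop is made of Arntl, Clock and Npas2, which encode the partners that bind E-boxes. Arntl (NM_007489) lies on the plus strand at chr7:113207465-113314126 (GRCm38). At RT, its normalized counts were 229, 168 and 372 in Atf4WT and 262, 82.6 and 358 in Atf4AKO libraries (replicates 0, 1 and 2). In the cold they were 617, 323 and 668 in Atf4WT and 506, 625 and 732 in Atf4AKO libraries. All 3 cold Atf4AKO libraries lay above all 3 RT libraries of that genotype, whereas in Atf4WT 1 cold library (323) lay below 1 RT library (372). The log2 fold change with cold was 1.63 ± 0.49 (SE, adjusted p = 0.032) in Atf4AKO and 1.07 ± 0.49 (adjusted p = 0.118) in Atf4WT iWAT. The RefSeq promoter of Arntl (GRCm38.p6) held a match to the ROR element through which REV-ERB proteins and RORs act on this gene. It is shown in capitals in the 30 bases around it. Nr1d1 and Nr1d2 moved the other way from Arntl in these means, and a link of this element to the changes was not tested.
Arntl, chr7:113207528-113207557, plus strand: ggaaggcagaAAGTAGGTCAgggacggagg
The match starts 27 bases downstream of the start of this RefSeq promoter. Distances here and for the promoters that follow are counted from the RefSeq start, which for Arntl, Cry1, Nr1d1 and Per1 is not the end of the gene's coordinates given here. This ROR element, searched on both strands, occurred in 0.606% of the 32851 promoters of this length.

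Clock (NM_001289826, chr5:76209868-76304792, minus strand) encodes the main partner of BMAL1. At RT it had 1854, 1765 and 1792 normalized counts in Atf4WT and 1977, 1588 and 2023 in Atf4AKO libraries. Cold libraries had 2312, 1879 and 2086 in Atf4WT and 2306, 2425 and 2527 in Atf4AKO. In both genotypes the cold libraries did not overlap those at RT, although in Atf4WT the lowest cold and highest RT library were close. Clock rose by 0.38 ± 0.10 on the log2 scale in Atf4AKO iWAT (adjusted p = 0.0196), and its change in Atf4WT was 0.21 ± 0.10 (adjusted p = 0.143). Npas2 (NM_008719, chr1:39193731-39363236, plus strand), the alternative partner, was the least abundant of the 10. It had 87.3, 52.0 and 157 normalized counts in Atf4WT and 65.1, 40.8 and 151 in Atf4AKO libraries at RT, and 139, 146 and 63.1 against 137, 152 and 156 in the cold. Neither genotype separated cold from RT, and the log2 fold changes were 0.28 ± 0.50 in Atf4WT (adjusted p = 0.704) and 0.99 ± 0.50 in Atf4AKO (adjusted p = 0.169). Atf4WT cold replicate 2 had the lowest Npas2 (63.1) and the highest Arntl (668) of its group, whereas in both RT groups the order of the 3 libraries was the same for both genes.

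Per1, Per2, Per3 and Cry1 form the negative arm, whose proteins repress the BMAL1 pair. Cry1 (NM_007771, chr10:85131700-85185064, minus strand) had 172, 273 and 193 normalized counts in Atf4WT and 218, 187 and 208 in Atf4AKO libraries at RT. In the cold it had 285, 350.4 and 387 in Atf4WT and 322, 356 and 384 in Atf4AKO libraries. All 6 cold libraries lay above all 6 RT libraries. The log2 fold changes were 0.69 ± 0.18 in Atf4WT (adjusted p = 0.0137) and 0.79 ± 0.18 in Atf4AKO (adjusted p = 0.00878). Its promoter held both an E-box (CACGTG) and an E'-box (CACGTT, here on the other strand and read as AACGTG), the letters to which the BMAL1 pair binds.
Cry1, chr10:85185084-85185158, minus strand: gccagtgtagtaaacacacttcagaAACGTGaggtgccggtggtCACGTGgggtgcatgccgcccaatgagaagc
The E-box starts 60 bases and the E'-box 79 bases upstream of the RefSeq start. Of all promoters in the table, 7.15% held an E-box and 4.68% an E'-box.

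Per3 (NM_001289878, chr4:151003652-151044665, minus strand) fell in the same comparison. Its normalized counts were 1259.6, 1824 and 1267 in Atf4WT and 1134, 1735 and 1141 in Atf4AKO libraries at RT, against 1025, 947 and 768 in Atf4WT and 1001, 1060.0 and 977 in Atf4AKO libraries in the cold. The highest cold library (1060.0) lay below the lowest RT library (1134). The log2 fold change was -0.65 ± 0.19 in Atf4WT (adjusted p = 0.0218) and -0.37 ± 0.19 in Atf4AKO iWAT (adjusted p = 0.168). Among the clock genes with a promoter in the table, Per3 alone matched the D-box (TTATGTAA), the element bound by DBP, TEF, HLF and NFIL3, and it did so at 2 places, 158 and 205 bases upstream of the start.
Per3, chr4:151044791-151044895, minus strand: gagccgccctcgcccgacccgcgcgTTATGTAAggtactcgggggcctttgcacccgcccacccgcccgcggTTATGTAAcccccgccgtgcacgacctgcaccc
This D-box occurred in 0.938% of all promoters.

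Per1 and Per2 showed no call in either genotype. Per1 (NM_011065, chr11:69095217-69109960, plus strand), which also responds quickly to cAMP and glucocorticoids, had 2960.2, 3029.5 and 2390.3 normalized counts in Atf4WT and 1486, 2846 and 2282 in Atf4AKO libraries at RT. In the cold it had 1065, 3409 and 2518 in Atf4WT and 3084, 2138 and 3125 in Atf4AKO libraries. The groups overlapped, and the lowest and the highest value of all 12 libraries both belonged to Atf4WT cold. The log2 fold changes with cold were -0.41 ± 0.37 in Atf4WT (adjusted p = 0.423) and 0.36 ± 0.37 in Atf4AKO (adjusted p = 0.492). A Per1 promoter in the table, at a start inside the annotated gene, held an E-box 166 bases upstream of that start.
Per1, chr11:69098758-69098813, plus strand: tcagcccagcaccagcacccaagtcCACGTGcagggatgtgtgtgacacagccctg
None of the 9 clock genes in the promoter table matched the full cAMP response element (TGACGTCA) in these windows, which 1.79% of all promoters held. Per2 (NM_011066, chr1:91415982-91459324, minus strand) is not in the promoter table. It ranged from 329 to 675 normalized counts over the 12 libraries, with group means of 526 ± 156 (SD, n = 3) in Atf4WT RT, 482 ± 128 in Atf4AKO RT, 449 ± 145 in Atf4WT cold and 475 ± 79.7 in Atf4AKO cold. In every group replicate 0 had the lowest Per2 value. The intervals of its log2 fold change with cold, -0.86 to 0.39 in Atf4WT and -0.63 to 0.63 in Atf4AKO (95%), include changes in both directions.

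Nr1d1 and Nr1d2 encode REV-ERBα and REV-ERBβ, the repressors that tie the loop back to Arntl. Nr1d2 (NM_011584, chr14:18204054-18239127, minus strand) had 2360.3, 3102 and 2412 normalized counts in Atf4WT and 2247, 2972 and 2354 in Atf4AKO libraries at RT. Cold libraries had 1959, 1968 and 1456 in Atf4WT and 1882, 1398 and 2096 in Atf4AKO. All 6 cold values lay below all 6 RT values. Its log2 fold change was -0.55 ± 0.18 in Atf4WT (adjusted p = 0.0373), and in Atf4AKO it was close in size, -0.50 ± 0.18, but did not pass (adjusted p = 0.0612). Nr1d1 (NM_145434, chr11:98767932-98775333, minus strand) had 6430.3, 9594 and 5902 normalized counts in Atf4WT and 7964, 6123 and 6565 in Atf4AKO libraries at RT, and 6004, 4622 and 3451 against 5789.8, 3873 and 5517 in the cold. The groups were separate in Atf4AKO and overlapped by 1 library in Atf4WT. Its log2 fold changes of -0.64 ± 0.24 (Atf4WT, adjusted p = 0.0577) and -0.46 ± 0.24 (Atf4AKO, adjusted p = 0.175) did not pass the test.
Nr1d1, chr11:98775378-98775430, minus strand: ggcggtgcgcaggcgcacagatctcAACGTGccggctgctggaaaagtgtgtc
The capitals mark an E'-box on the other strand, 28 bases upstream of the RefSeq start. Exons of Nr1d1 and of Thra, a thyroid hormone receptor gene on the opposite strand, share 263 bases, or 8.55% of the exon length of Nr1d1. Thra itself fell with cold in both genotypes, by 0.69 and 0.53 on the log2 scale. The strand setting of the counting is not stated, so reads from the shared stretch may belong to either gene.

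Dbp (NM_016974, chr7:45705088-45710203, plus strand) encodes a PAR bZIP factor and is a direct output of the BMAL1 pair. At RT it had 2342, 3828 and 1038 normalized counts in Atf4WT and 2563, 3419 and 1276 in Atf4AKO libraries. In the cold it had 1087, 1278 and 691 in Atf4WT and 814, 719.9 and 875 in Atf4AKO libraries. The Atf4AKO groups did not overlap, and in Atf4WT the low RT library (1038) lay below 2 of the 3 cold libraries. The log2 fold change was -1.48 ± 0.45 in Atf4AKO (adjusted p = 0.0331) and -1.09 ± 0.45 in Atf4WT iWAT (adjusted p = 0.0858). Exons of Sphk2, on the opposite strand, share 539 bases with Dbp (18.0% of its exon length). Sphk2 rose with cold, by 0.70 in Atf4WT and 0.55 in Atf4AKO on the log2 scale, the other direction from Dbp.

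**Figure D2:**
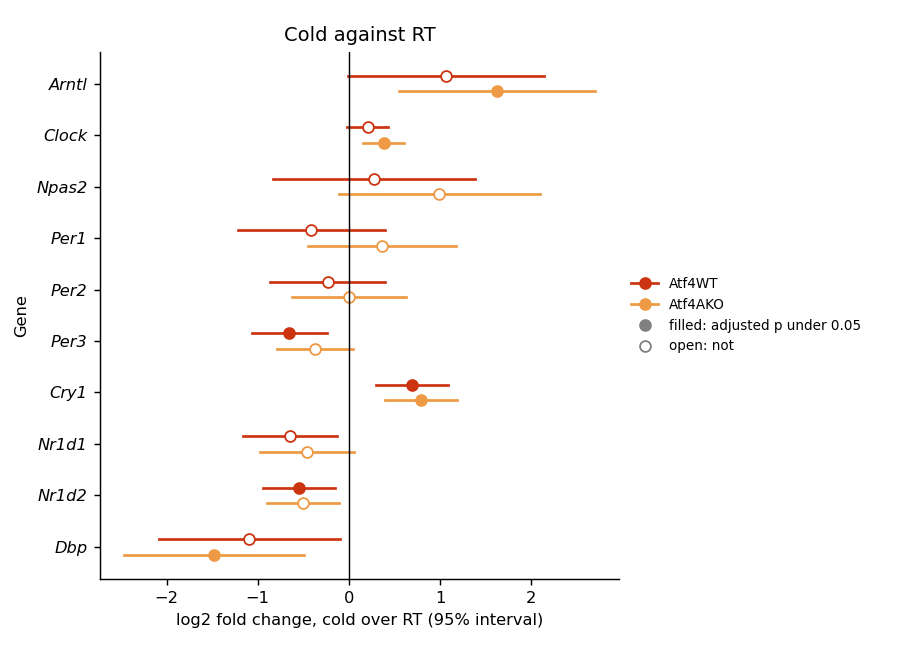
Log2 fold change of cold over RT for each clock gene in Atf4WT and Atf4AKO iWAT, with 95% intervals from limma (n = 3 per group). Filled points passed an adjusted p of 0.05. The point estimates of both genotypes lay on the same side of 0 for each gene except Per1, and only Cry1 was filled in both. Per2 in Atf4AKO sat at 0.

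Counted by separation alone, 4 of 10 genes did not overlap between cold and RT in Atf4WT iWAT (Clock, Per3, Cry1 and Nr1d2), against 46.8% of all tested genes. In Atf4AKO iWAT 7 of 10 did not overlap (these 4 with Arntl, Nr1d1 and Dbp), against 41.7%. The threshold of the study's methods, a fold change over 1.5 with an unadjusted p under 0.05, was passed by 4 genes in Atf4WT (Per3, Cry1, Nr1d1 and Dbp, background 21.2%) and by 3 in Atf4AKO (Arntl, Cry1 and Dbp, background 17.2%).

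Several of these calls were lost when a single library was left out, but the share of all genes called fell too. In Atf4WT iWAT the count of 3 fell to 0 without cold replicate 2 (24.8% of all genes called, main settings 31.9%). It fell to 1 without RT replicate 0 (22.6%) or RT replicate 1 (22.5%). Without the muscle-rich pair of libraries it was 4 (Per3, Cry1, Nr1d1 and Dbp), against 23.8% of all genes. In Atf4AKO iWAT the count of 4 fell to 1 without RT replicate 1 (20.3%) or cold replicate 1 (17.01%). It fell to 2 without cold replicate 2 (20.1%), where the main settings called 25.9% of all genes. The effect of the omitted library was not separated from that of the smaller group. Cry1 stayed called in Atf4AKO iWAT in each of 16 alternatives tried, and in Atf4WT iWAT it lost its call in 4 of 17 (highest adjusted p = 0.189). The lymphocyte score, a mean over the log2 values of the 23 listed markers of B and T cells, was 7.25 to 9.77 in Atf4WT cold and 3.71 to 7.08 in Atf4WT RT libraries. As a covariate it left 0 of 10 clock genes and 13.5% of all genes called for cold in Atf4WT iWAT. The score ranges of these groups did not overlap, so the score and cold exposure cannot be told apart in Atf4WT iWAT. With the same covariate, 5 of 10 clock genes (Arntl, Clock, Cry1, Nr1d2 and Dbp) and 26.3% of all genes were called in Atf4AKO iWAT.

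The cold comparison was also made over both genotypes at once, 6 libraries against 6, a choice made after the data had been seen. In this comparison 7 of 10 clock genes were called, against 44.8% of all tested genes. Arntl (1.35 ± 0.35, SE, log2 scale, adjusted p = 0.00876), Cry1 (0.74 ± 0.13, adjusted p = 0.000789) and Clock (0.30 ± 0.07, adjusted p = 0.0068) rose. Dbp (-1.29 ± 0.32, adjusted p = 0.0071), Nr1d1 (-0.55 ± 0.17, adjusted p = 0.0196), Nr1d2 (-0.53 ± 0.13, adjusted p = 0.00625) and Per3 (-0.51 ± 0.13, adjusted p = 0.00901) fell. Npas2, Per1 and Per2 did not pass, with 0.63 ± 0.36, -0.02 ± 0.26 and -0.12 ± 0.20. Thus the 2 genes with the largest changes were Arntl and Dbp, in opposite directions. Per3, Cry1 and Nr1d2 did not overlap between the 6 cold and the 6 RT libraries (3 of 10, background 24.7%), and Arntl, Cry1 and Dbp passed the threshold of the study's methods (3 of 10, background 19.7%). The count stayed at 7 without the muscle-rich pair of libraries (41.5% of all genes called). It was 7 or 8 without any single library (39.1% to 43.7%). With the lymphocyte score as a covariate it was 2 (Clock and Cry1), against 37.6% of all genes.

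At RT, Arntl and Dbp also varied most between mice of the same group, beside Npas2. The highest Arntl library exceeded the lowest 2.20-fold in Atf4WT and 4.29-fold in Atf4AKO, for Dbp these ratios were 3.69 and 2.68, and for Npas2 they were 2.98 and 3.64. The range of Dbp within Atf4WT RT, 1.88 on the log2 scale, was larger than that of 97.7% of tested genes, and the range of Arntl within Atf4AKO RT, 2.10, was larger than that of 99.3%. The median gene had a range of 0.30 and 0.32 in these groups. The range of Clock in Atf4WT RT was 0.07, larger than that of 4.9% of genes. In the cold, the ranges in Atf4WT were 1.05 for Arntl and 0.89 for Dbp, larger than those of 87.2% and 83.6% of genes. In Atf4AKO cold they were 0.53 and 0.28, and the median gene had a range of 0.33 in both groups. Other clock genes had wider ranges than Arntl there: Per1 (1.68) and Npas2 (1.19) in Atf4WT cold. In Atf4AKO cold these were Nr1d1 (0.58), Nr1d2 (0.58) and Per1 (0.55).

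The 2 genes varied in opposite directions within the RT groups and within Atf4WT cold. In both genotypes RT replicate 1 had the lowest Arntl and the highest Dbp, and RT replicate 2 the highest Arntl and the lowest Dbp. Atf4WT cold had the same order, with Arntl at 323 and Dbp at 1278 in replicate 1, and 668 and 691 in replicate 2. Atf4AKO cold did not have this order. The log2 difference of Arntl minus Dbp was -3.35, -4.50 and -1.48 in Atf4WT RT and -3.28, -5.35 and -1.83 in Atf4AKO RT (replicates 0, 1 and 2). In the cold it was -0.81, -1.98 and -0.05 in Atf4WT and -0.69, -0.20 and -0.26 in Atf4AKO libraries. Cold values were thus nearer 0, with 1 cold library (Atf4WT replicate 1) below 2 RT libraries (replicate 2 of each genotype). Of the 2 RT replicates numbered 2, that of Atf4WT was rich in muscle RNA (87261 normalized counts summed over the markers) and that of Atf4AKO was not (349). The labels do not say whether mice with the same number shared a litter or a day.

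**Figure D3:**
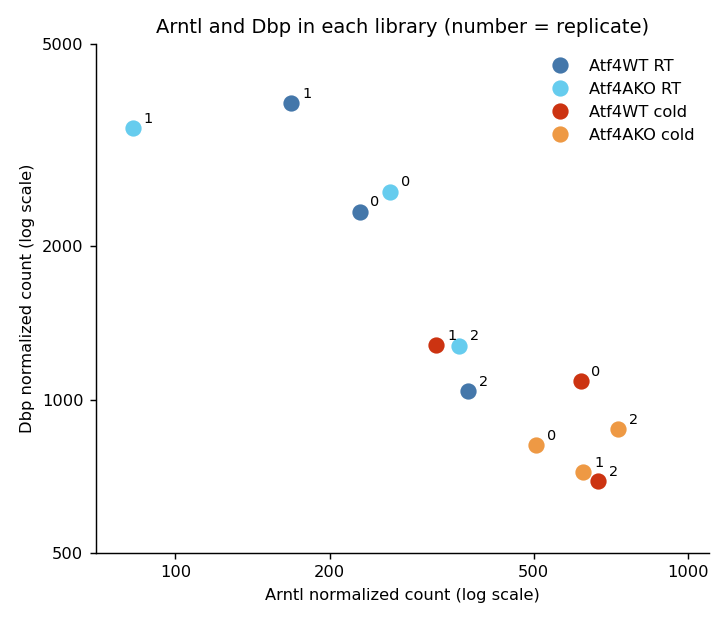
Normalized counts of Dbp against Arntl in each of the 12 libraries, both on log axes, with colour giving the group and the number the replicate. RT libraries numbered 0 and 1 lie at the upper left (Dbp 2342 to 3828), those numbered 2 lie among the cold libraries, and the 6 cold libraries lie at the lower right (Arntl 323 to 732).

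The second question was whether loss of ATF4 in adipocytes changed the clock genes. None of the 10 genes was called for Atf4AKO against Atf4WT iWAT in the cold or at RT by limma, and none had an unadjusted p under 0.05, which 1571 of all tested genes had in the cold and 205 at RT. The background was also low, 0.0298% of genes in the cold and 0.00746% at RT by adjusted p. In the cold the log2 fold changes ran from -0.30 ± 0.45 for Dbp (95% interval -1.29 to 0.69) to 0.44 ± 0.50 for Npas2 (-0.66 to 1.55). The closest to the threshold was Clock, at 0.21 ± 0.10 (interval -0.01 to 0.44, adjusted p = 0.455). At RT they ran from -0.38 ± 0.37 for Per1 (interval -1.19 to 0.43) to 0.09 ± 0.45 for Dbp (-0.90 to 1.08). Intervals were narrow for Clock at RT, -0.19 to 0.26, and wide for Arntl, -1.37 to 0.79 at RT and -0.81 to 1.34 in the cold, so that changes of over 1 on the log2 scale in Arntl stay within them.

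Both groups of each genotype comparison overlapped for all 10 genes, whereas 16.5% of tested genes were separate in the cold and 6.3% at RT. No clock gene passed the threshold of the study's methods (background 6.4% in the cold and 0.463% at RT). The median log2 fold change of the 10 was 0.14 in the cold and -0.09 at RT, beside 0.05 and 0.0056 over all tested genes. DESeq2 and edgeR on reads recovered from the normalized counts also called 0 of 10 in both comparisons. Over all genes DESeq2 called 591 in the cold and 4 at RT, and edgeR 3 and 1.

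**Figure D4:**
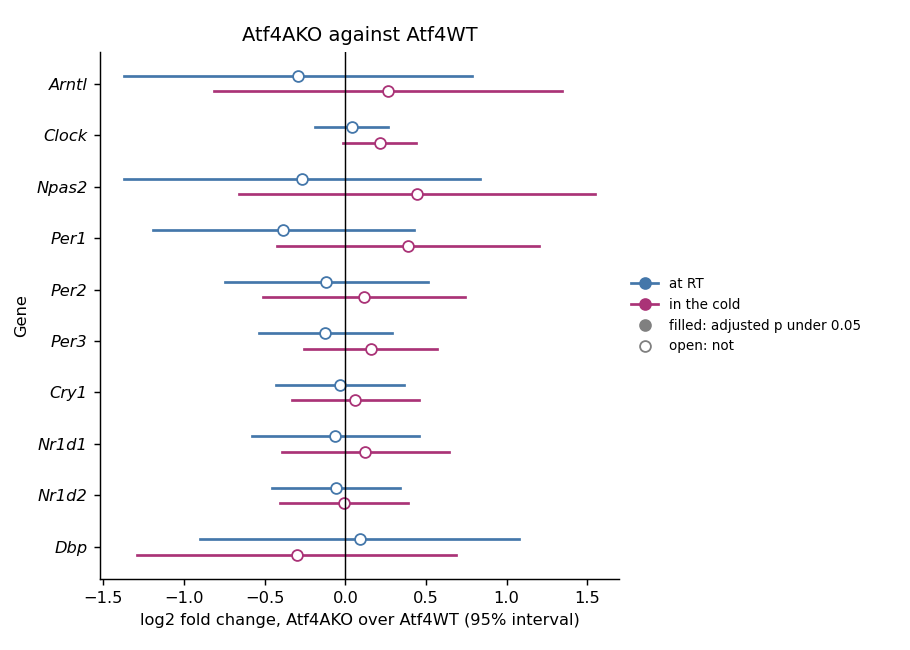
Log2 fold change of Atf4AKO over Atf4WT for each clock gene at RT and in the cold, with 95% intervals from limma (n = 3 per group). All 20 intervals include 0, and none of the points is filled.

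Whether cold acted differently in Atf4AKO and Atf4WT iWAT was tested directly as an interaction. No clock gene was called, nor was any other gene (0.0% of tested genes, while 928 had an unadjusted p under 0.05), and 0 of 10 clock genes had an unadjusted p under 0.05. The largest difference was that of Per1, 0.77 ± 0.52 (interval -0.37 to 1.92, adjusted p = 0.956), followed by Npas2 at 0.71 ± 0.71 and Arntl at 0.56 ± 0.69 (-0.97 to 2.08). Dbp differed by -0.39 ± 0.64 and Clock by 0.18 ± 0.15. Hence the calls of Arntl, Clock and Dbp in Atf4AKO but not in Atf4WT, and of Per3 and Nr1d2 in Atf4WT but not in Atf4AKO, are not shown to differ between genotypes. The threshold of the study's methods, applied to the interaction, was passed by 0 of 10 (background 4.63%). On recovered reads, DESeq2 and edgeR called 0 of 10 clock genes as well, and 128 and 0 of all genes.

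For 5 related lists, the counts of called genes are to be read against the same background of 31.9% in Atf4WT and 25.9% in Atf4AKO iWAT. Of 11 further genes of the loop, all tested, Nfil3 rose and Cry2 fell in Atf4WT, and Nfil3 rose in Atf4AKO iWAT, while 9 of 11 had a negative change in each genotype. Nfil3, a repressor that competes with DBP at D-boxes, rose by 1.00 ± 0.23 (adjusted p = 0.00732) and 1.27 ± 0.23 (adjusted p = 0.00253) on the log2 scale. Cry2, the paralogue of Cry1, fell by 0.47 ± 0.16 in Atf4WT (adjusted p = 0.0464) and changed by -0.41 ± 0.16 in Atf4AKO iWAT (adjusted p = 0.0856). Thus the called changes of both cryptochrome genes in Atf4WT iWAT had opposite signs. The list's median was -0.47 in Atf4WT and -0.44 in Atf4AKO iWAT.

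The next list held 12 genes for kinases, ubiquitin ligases and partners that act on clock proteins. Of these, 1 was called higher and 2 lower in Atf4WT, and 3 were called higher and 2 lower in Atf4AKO iWAT (background 31.9% and 25.9% called). Btrc, whose product targets PER proteins for degradation, fell by 0.65 ± 0.08 in Atf4WT and 0.49 ± 0.08 in Atf4AKO on the log2 scale (adjusted p = 0.000396 and 0.00205). Csnk2a1, a catalytic subunit of casein kinase 2, rose by 0.46 ± 0.09 in both (adjusted p = 0.0027 and 0.00307). In Atf4AKO iWAT Timeless, the mammalian relative of a fly clock gene, fell by 0.66 ± 0.17 (adjusted p = 0.0164) and Csnk1a1 rose by 0.29 ± 0.09 (adjusted p = 0.0289).

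Among 12 genes listed as clock outputs, 3 were called higher and 2 lower in Atf4WT iWAT. In Atf4AKO iWAT 3 were called higher and 1 lower. These shares were near the background of 31.9% and 25.9%. Noct, which encodes nocturnin and is named for its rhythm, rose by 1.57 ± 0.30 and 1.80 ± 0.30 (adjusted p = 0.00302 and 0.00175). Leo1 rose by 0.79 and 0.81 and Coq10b by 0.92 and 0.85, and Tspan4 fell by 0.77 and 1.01, in Atf4WT and Atf4AKO in turn. The medians of the list were -0.05 and -0.11.

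Signals that can reset the clock were represented by 12 cAMP-responsive and 12 glucocorticoid-responsive genes. The former were called higher in 5 of 12 cases in Atf4WT and in 4 of 12 in Atf4AKO iWAT, with none called lower (background 31.9% and 25.9%, both directions). Their medians were 0.71 and 0.69. Ppargc1a, the coactivator of thermogenic genes, rose by 2.01 ± 0.25 and 2.57 ± 0.25 (adjusted p = 0.000305 and 8.13e-05). Nr4a3 rose by 2.06 ± 0.42 and 1.73 ± 0.42, Nr4a2 by 0.93 ± 0.19 and 1.30 ± 0.19, and Pde4d by 0.72 ± 0.21 and 1.29 ± 0.21 on the log2 scale. Of the glucocorticoid-responsive genes, 2 were called higher and 2 lower in Atf4WT and 2 higher and 1 lower in Atf4AKO iWAT. These shares were close to the background of 31.9% and 25.9%. The medians of this list were -0.52 in Atf4WT and -0.27 in Atf4AKO iWAT, with a positive change for 4 and 5 of 12 genes. Cdkn1a rose by 1.14 and 1.66 and Pdk4 by 1.69 and 2.15, whereas Mt2 fell by 1.94 and 1.20, and Mt1 fell by 0.75 in Atf4WT iWAT.

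**Figure D5:**
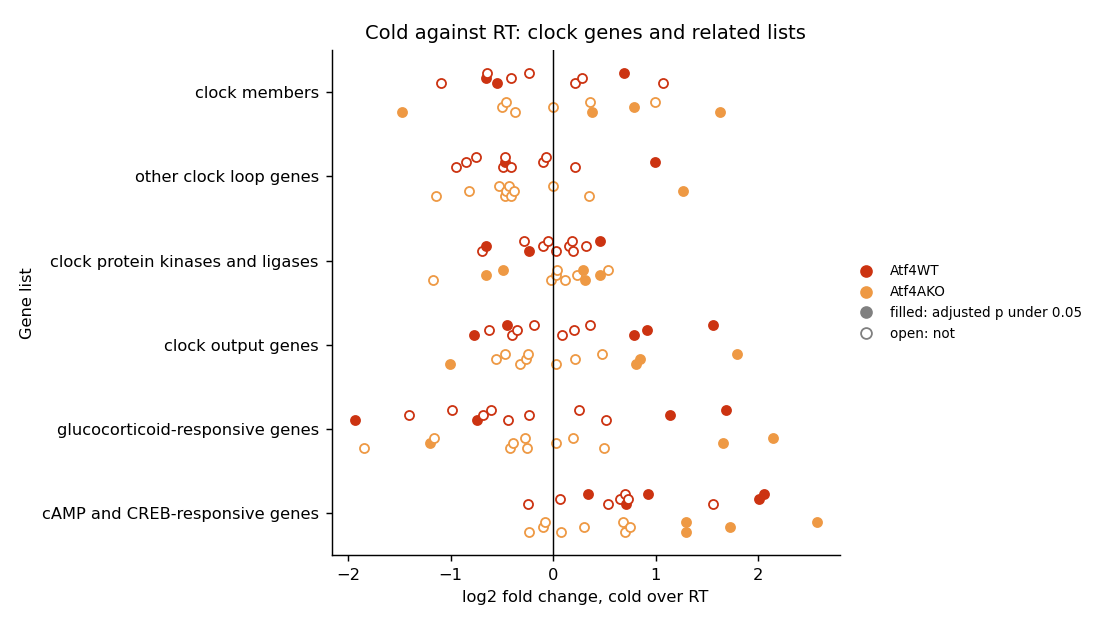
Log2 fold change of cold over RT for the clock genes and 5 related lists, with Atf4WT above Atf4AKO in each row and 1 point per gene. Filled points passed an adjusted p of 0.05, and none of the called cAMP-responsive genes lies below 0.

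Genes outside the list whose pattern was most like that of a clock gene were found by the mean absolute difference of centred log2 values over the 12 libraries. For Arntl these included Slc23a1 (0.31), Mlxipl (0.32), Zfp691 (0.34) and Dtx4 (0.34). For Dbp they were Vasn (0.32), Eepd1 (0.33), Egflam (0.33), Syne3 (0.34) and Prr16 (0.34). Among the clock genes themselves, the nearest to Arntl was Npas2 (0.50). The nearest to Dbp were Nr1d2 (0.524), Per3 (0.526) and Nr1d1 (0.528), which were nearly equal. Arntl and Dbp differed by 1.43.

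Fibroblast markers moved with cold in both genotypes. Their sum over 7 listed markers was 166413 to 181286 normalized counts in Atf4WT RT and 149734 to 212899 in Atf4AKO RT libraries. In the cold it was 45349 to 103915 in Atf4WT and 52074 to 89839 in Atf4AKO libraries. Of these markers 3 were called lower in Atf4WT and 4 in Atf4AKO iWAT, against 31.9% and 25.9% of all tested genes called. Col3a1 was the most abundant marker, and the medians were -1.24 and -1.27 on the log2 scale. Their part in the changes of the clock genes was not tested.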

How the data were processed

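Bulk polyA RNA-seq with a strand-specific kit covered 12 iWAT samples, 3 in each of 4 groups. The authors used SOAPnuke for filtering, STAR for alignment to mm10, featureCounts for uniquely mapped reads and pyDESeq2 for normalization, so the deposited values are a normalized signal, namely reads divided by the size factor of the library. Versions and the strand setting are not given in the sources used here. Each value was a whole multiple of the smallest value of its library (largest deviation 0.000313 reads), which gave whole reads. No listed gene was at 0 reads in any library.

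Normalized counts were analysed as log2(value + 1) with limma 3.58.1 in R 4.3.3 (lmFit, eBayes with a variance trend) for 13404 genes with a mean of at least 10, using 4 group means without covariates. A gene was called at a Benjamini-Hochberg adjusted p under 0.05 over all tested genes. Fold changes are on the log2(value + 1) scale. Alternatives were no filter or one at 50, a pseudocount of 0.5 or 5, rescaling to the 75th percentile, a replicate block, the lymphocyte score as a covariate, only the 2 groups compared, leaving out single libraries, the threshold of the study's methods, and edgeR 4.0.16 and DESeq2 1.42.0 on recovered reads. Added after the data were seen were the comparison over both genotypes and the omission of 2 muscle-rich libraries (over 10000 normalized counts summed over markers).

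The clock genes and lists were chosen with earlier results of these data known. Values are given for all 10 clock genes, for Atf4 and Ucp1, and, of each other list, for at most 4 called genes with the smallest p in each cold comparison. The 5 genes most like Arntl and Dbp were those with the smallest mean absolute difference. Some genes that these rules name are not reported here. Gene positions and exon lengths came from GENCODE (GRCm38), and promoters, 250 bases before to 50 after the start, from RefSeq (GRCm38.p6), where 9 of 10 genes matched. At this depth replicates differed by more than counting error (chi-square per degree of freedom 34.5 to 69.8). All columns of values were used. Figures were drawn in Python 3.11.15 with matplotlib 3.10.9.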

Additional observations from a re-analysis of the deposited data

How the results depend on the processing

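Counts of called clock genes in the genotype comparisons and the interaction were 0 under every alternative run. By adjusted p, at most 4.19% of all genes were called in the cold, 0.0284% at RT and 1.99% in the interaction. The percentages that follow are shares of all genes called in the same setting. For cold in Atf4WT (3, 31.9%), the count was 5 with a replicate block (36.2%), as Arntl and Dbp were added. It was 0 with the lymphocyte score (13.5%), 6 with DESeq2 (35.4%), and 0 to 4 without single libraries (22.5% to 28.6%). For cold in Atf4AKO (4, 25.9%), it was 5 with the lymphocyte score (26.3%) and 2 in a model of only the 2 groups compared (18.9%). Without single libraries it was 1 to 5 (16.5% to 23.6%). For cold over both genotypes (7, 44.8%), it was 2 with the lymphocyte score (37.6%) and 3 with the threshold of the study's methods (19.7%). The replicate block changed no other count of clock genes, but it raised counts over all genes. For Atf4AKO against Atf4WT in the cold, genes called rose from 4 to 189 (0.0298% to 1.41%). For cold in Atf4AKO, the share rose from 25.9% to 30.8%. Deviations of same-numbered libraries correlated between -0.189 and 0.389 (9 of 18 pairs over 0.1), against -0.475 to 0.312 for differently numbered libraries (9 of 36). All 6 pairs numbered 1 were over 0.1 (0.179 to 0.389), but not all pairs numbered 0 or 2, so the numbers were not taken to pair the samples.

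Of 830 single-gene values under alternatives, 743 kept direction and side of the threshold, 33 lost and 18 gained a call, and 36 changed sign. These values cover all 10 clock genes in the cold comparisons. In the genotype comparisons and the interaction they cover only Arntl, Clock, Npas2, Per1 and Dbp. No gene changed sign in a comparison in which it was called under the main settings. With the lymphocyte score, the log2 fold change with cold in Atf4WT became -0.40 for Npas2 and 0.23 for Dbp. Without the muscle-rich libraries it became 0.0079 for Per2 in Atf4WT. Over both genotypes it became 0.17 for Per1 and 0.0038 for Per2. For Atf4AKO against Atf4WT the change of Per1 became -0.10 in the cold, and at RT Arntl became 0.014, Npas2 0.13 and Dbp -0.42, while the interaction of Dbp became 0.19. Per1 over both genotypes was 0.027 with edgeR and 0.037 with DESeq2. Without single libraries, cold values ran from -0.11 to 0.68 for Npas2 and -0.76 to 0.077 for Per1 in Atf4WT, -0.22 to 0.18 for Per2 in Atf4AKO, and -0.20 to 0.22 for Per1 over both genotypes. Atf4AKO against Atf4WT ran from -0.065 to 0.46 for Arntl and -0.10 to 0.74 for Per1 in the cold, and at RT from -0.72 to 0.33 for Arntl, -0.025 to 0.15 for Clock, -0.78 to 0.15 for Npas2 and -0.42 to 0.52 for Dbp. The interaction ran from -0.069 to 0.98 for Arntl and -0.82 to 0.12 for Dbp. The cause of these shifts was not tested.

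Groups of 3 could not be tested for outliers. Collection times are not given, and 3 mice per group give wide intervals for genes that cycle.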
